A study of Bactrocera dorsalis with 4 samples.

Results

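The predicted miRNAs of 21 to 25 nt of the oriental fruit fly *Bactrocera dorsalis* were taken from the deposited table of predicted miRNAs, with 1 member for each distinct name whose mature sequence was at least 21 nt long. There were 50 such names among 215 in the table, and the other 165 were 18 to 20 nt long. Small RNA had been sequenced from adults aged 12 days in 4 libraries, 1 each of ovaries, of testes, of female bodies from which the ovaries had been removed and of male bodies from which the testes had been removed. The labels give no strain or treatment and no number of pooled animals. The table of predicted miRNAs names no library and holds no amount, so it was read as pooled over the 4 libraries, and no comparison between females, males, ovaries and testes was possible for its entries. The labelled tissues could not be checked against markers for the same reason, and the number of reads behind an entry is unknown here. Every value below is therefore a description of listed sequences, and no test of a difference was made.

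In animals a miRNA is cut from a hairpin, the precursor, by the nucleases Drosha and Dicer. The cut leaves a short duplex of a strand from the 5′ side of the hairpin (the 5p arm) and a strand from the 3′ side (the 3p arm), each with a short overhang of unpaired bases at its 3′ end. An Argonaute protein then keeps 1 strand, and in flies the strand kept as a miRNA often begins with U. The seed, bases 2 to 8 from the 5′ end, contributes most to the choice of target mRNAs, so miRNAs are grouped into families by their seed. A predicted miRNA is a sequenced small RNA that can be placed in a genome stretch able to fold in this way. The name PC-5p or PC-3p gives the arm, and the file does not explain the numbers that follow.

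The members of a hairpin that was listed on 3 contigs are shown first, because nearly the same mature sequences recur in it under different names. All sequences run from 5′ to 3′ with T for U as deposited, and capitals mark the seed.
PC-5p-15170_158: cTCGAATAacgttgtaagtgc
PC-5p-50795_31: cTCTAATAacgttgtaagtgc
PC-5p-80860_16: tCGAATAAcgttgtaagtgcta
PC-3p-3745_705: aCTTACAAcgttattcgaggcg
PC-3p-11960_210: aCTTACAGcgttattcgaggcg
PC-3p-58586_26: aCTTGCAAcgttattcgaggcg
PC-3p-44538_38: aCTTACAAcgttattcgaggc

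The members that lie in hairpins of known miRNAs come next, each beside the known sequence of the same arm where that arm is listed at the position. They are shown because the known sequence lets a reader see how far the predicted sequence departs from it.
PC-5p-243122_4: cGGTCGTGggttgtcgtaatg
PC-3p-199_10687: tATTGCACaatccccggcctga
miR-311-3p: tATTGCACaatcaccggcctga
PC-5p-52043_30: tTCGTCAAagcggttgtgaaat
miR-2b-2-5p: tTCTTCAAagcggttgtgaaat
PC-3p-80027_17: aCAGGAAAggggaagagacgta
PC-5p-28322_70: gCCCGTATcatgtggatgctg
PC-5p-49655_32: gCGTTAAAacggttgtgaatt
PC-3p-64888_22: tGCAAGCAttgtggaagtgata
miR-932-3p: tGCAAGCAttgtggaagtgat
PC-5p-23218_92: gGGAGCGAgatagggacttgct

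Of the remaining 35 members, the ones shown are those of 24 and 25 nt, those with the 3 lowest and 3 highest folding free energies, those next to another predicted hairpin, and PC-5p-33110_57, whose precursor has both arms in capitals.
PC-5p-363150_3: cTGTAGAGaaccgatgaaccatat
PC-5p-417967_2: tATTTCTAagtattgtgagtgcggc
PC-5p-74381_18: tTCGACTTctcactttagctcgcct
PC-5p-64989_22: cCTTATGGttgtacaaagatc
PC-3p-620996_2: tGGACAGGttcgcattgcaccc
PC-5p-33110_57: aACGTCAAaatctcctgaact
PC-3p-199506_5: aATGTATGgagcggtgccact
PC-3p-42276_41: tAAATTCAatttaatttcaacag
PC-3p-76490_18: tTCGCTTCggatggggtggcc
PC-3p-95763_13: aTTATCATtgattttaatatt

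The 50 members were 50 distinct sequences in 54 entries, where an entry is 1 name at 1 position. They came from 48 precursor positions on 42 contigs, and the whole table held 220 entries on 170 contigs. By length there were 23 members of 21 nt, 18 of 22 nt, 6 of 23 nt, 1 of 24 nt and 2 of 25 nt. The member of 24 nt was PC-5p-363150_3, and those of 25 nt were PC-5p-417967_2 and PC-5p-74381_18, all on the 5p arm. Below the limit the table held 27 names of 20 nt, 62 of 19 nt and 76 of 18 nt. On the 2 sides of the limit, 17 of the 27 names of 20 nt and 10 of the 23 names of 21 nt started with U. The same names were on the 3p arm in 17 of 27 and 9 of 23, and the median folding free energy of their precursors was -19.4 and -33.5 kcal/mol. Of the 25 entries of 21 nt, 5 belonged to the hairpin listed on 3 contigs, and without them the median was -25.4 kcal/mol.

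The hairpin that recurred on several contigs held 7 of the members. Its 6 precursor positions lay on JFBF01000078.1, JFBF01000119.1 and JFBF01000299.1, called contigs A, B and C here, with 1 position on each strand of each contig. On contig A the plus-strand precursor ran from 752650 to 752745 and the minus-strand precursor from 752606 to 752709. On contig B they ran from 640750 to 640839 and from 640704 to 640805, and on contig C from 751 to 844 and from 711 to 804. These are positions on contigs of the *B. dorsalis* genome, and no gene annotation of these contigs was used. The plus- and minus-strand precursors of contig A are printed here with the mature arms in capitals, to show that either strand can fold.
contig A, plus strand: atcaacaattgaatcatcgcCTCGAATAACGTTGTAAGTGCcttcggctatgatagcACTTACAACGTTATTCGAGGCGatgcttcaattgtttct
contig A, minus strand: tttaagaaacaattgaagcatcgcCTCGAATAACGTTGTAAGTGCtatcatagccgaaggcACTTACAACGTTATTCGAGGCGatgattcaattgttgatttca

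The capital arms of the 2 printed precursors are the same, and the loops between them differ. Read as a reverse complement, the minus-strand precursor matched the plus-strand precursor at 96 of 96 aligned bases on contig A, 90 of 90 on contig B and 94 of 94 on contig C. The listed coordinates did not show this. Laid over each other by those coordinates, the strands matched at only 11 of 60, 13 of 56 and 12 of 54 bases. The listed place and the matching place were 40 bases apart on all 3 contigs, so the listed coordinates and sequences of the strands disagreed. PC-5p-80860_16, which runs into the loop, matched the minus strands of contigs A and C exactly and their plus strands with 2 mismatches. Contig B went the other way, with 1 mismatch on its plus strand and 2 on its minus strand.

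The 7 names spread over the positions as follows. PC-5p-15170_158 and PC-3p-3745_705 were listed on the plus strands of contigs A and C. PC-5p-50795_31 and PC-3p-11960_210 were listed on the minus strands of contigs A and B, so that these 4 were the only members with more than 1 position. PC-5p-80860_16 and PC-3p-58586_26 were listed on the minus strand of contig C, and PC-3p-44538_38 on the plus strand of contig B. The table listed both arms at 6 positions in all, and 5 of them belonged to this hairpin.

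Within the hairpin the names differed by single bases or by their ends. Differences are counted from 1 at the 5′ end, with the base of the sequence compared against given first and that of the differing sequence last. Against PC-5p-15170_158, PC-5p-50795_31 had G4T. Against PC-3p-3745_705, PC-3p-11960_210 had A8G and PC-3p-58586_26 had A5G. All 3 of these substitutions lie in the seed. PC-3p-44538_38 was PC-3p-3745_705 without its last base, and PC-5p-80860_16 shared a run of 20 bases with PC-5p-15170_158 from a shifted start. PC-3p-3745_705 and PC-3p-44538_38, with the seed CTTACAA, were the only pair of members with a common seed, and the 50 members had 49 seeds.

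The 3 names with a substitution matched none of the 6 precursors exactly, and each differed from the precursor under which it was listed at the substituted base. PC-3p-3745_705 and PC-5p-15170_158 matched 5 of the 6 exactly, PC-3p-44538_38 matched all 6 and PC-5p-80860_16 matched 2. Each name thus had as good a match on positions under which it was not listed. Outside this hairpin, no member was found with 0 or 1 mismatch, on either strand, in a predicted precursor other than its own.

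**Figure D1:**
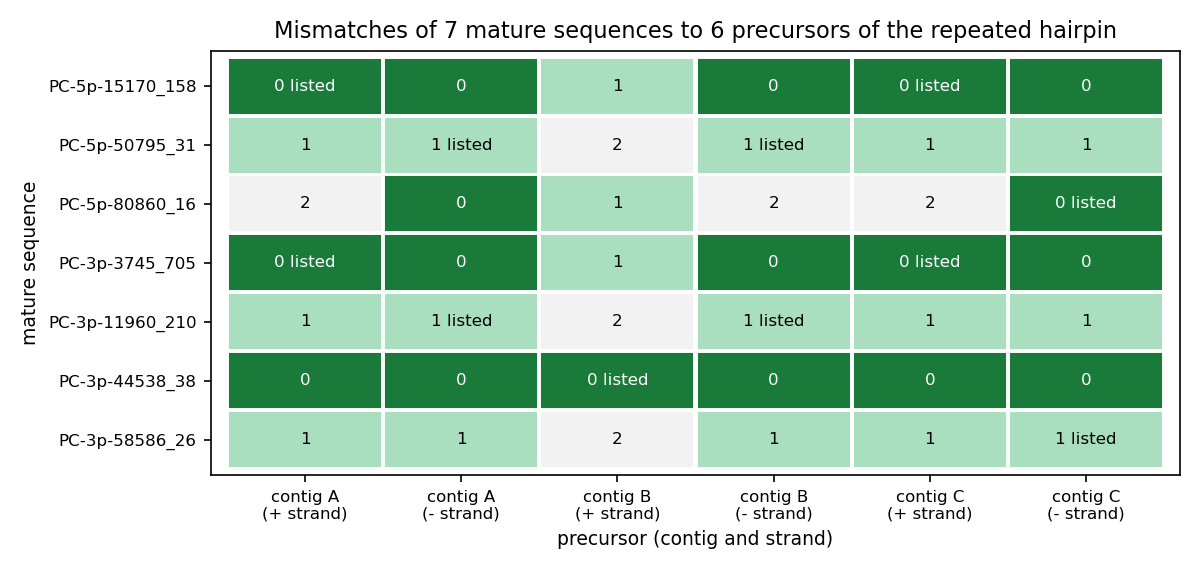
Number of mismatches between each of the 7 mature sequences (rows) and the 6 precursors of the recurring hairpin (columns, by contig and strand; A is JFBF01000078.1, B is JFBF01000119.1 and C is JFBF01000299.1). "Listed" marks the positions given in the table. PC-3p-44538_38 has 0 mismatches in every column, and PC-5p-50795_31, PC-3p-11960_210 and PC-3p-58586_26 have 0 in none.

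The folding free energy is the change in free energy in kcal/mol when a precursor folds, and a more negative value means a more stable fold. It reached its lowest values in this hairpin. Its 11 entries, from 6 precursors, lay between -63.4 and -49.9 kcal/mol, and their median was -62.7 kcal/mol. A precursor with both arms listed gave 2 entries of the same energy. The 3 lowest energies of all members, -63.4, -63.0 and -62.7 kcal/mol, were those of the minus strand of contig A, the plus strand of contig A and the plus strand of contig C. The minus strand of contig C had -62.0 kcal/mol, and contig B had -50.6 on its plus and -49.9 kcal/mol on its minus strand. Some precursors outside this hairpin lay below those of contig B, as that of PC-5p-64989_22 did with -61.6 kcal/mol. In 8 of the 11 entries every precursor base at the place of the mature sequence was paired in the deposited structure. No entry of another member and none of the 166 entries of 18 to 20 nt showed this in the deposited structures. A structure recomputed with RNAfold paired 100% of PC-3p-79077_17, an entry of 20 nt, beside 90% in the deposited one. The 8 include entries of PC-5p-50795_31, PC-3p-11960_210 and PC-3p-58586_26, whose substituted base was not examined for pairing. In the duplex of PC-5p-15170_158 with PC-3p-3745_705 there were 19 base pairs, with a 3′ overhang of 2 bases on the 5p arm and of 3 bases on the 3p arm. PC-5p-50795_31 with PC-3p-11960_210 gave the same overhangs at both of its positions. For PC-5p-80860_16 with PC-3p-58586_26 the overhangs were 4 and 4 bases with 18 base pairs.

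The hairpins of known miRNAs held 8 members, in 7 hairpins. Here a known miRNA is an entry of the deposited list of a library, and a member was counted when its precursor shared at least 1 base with a known precursor on the same strand. The 8 were 16% of the members (95% exact interval 7.17% to 29.1%, which covers counting error only). Among the 165 shorter names there was 1, PC-5p-57217_26 in the hairpin of miR-2a-3p, or 0.606% (0.0153% to 3.33%). For 5 of the 8 members the shared stretch was the whole of the shorter precursor. For the other 3 it was 19 bases with miR-316, 14 bases with miR-932 and 44 bases with miR-14. In these 3 cases the known mature sequence was found without mismatch inside the predicted precursor. Placed there, miR-316-5p shared 2 bases with the interval listed for its own precursor, miR-932-3p and miR-932-5p shared 0 and miR-14-3p shared 10.

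PC-3p-199_10687 was listed with PC-5p-243122_4 on the minus strand of JFBF01001268.1 from 22680 to 22752. The known miR-311-3p was listed on the same strand with the same start and end. In *Drosophila* miR-311 belongs to a cluster of miRNAs that share their seed with miR-92. Against miR-311-3p, PC-3p-199_10687 had A13C and kept the seed ATTGCAC, which miR-310-3p, miR-312-3p and miR-92b-3p carried as well. The deposited precursor holds PC-3p-199_10687 without mismatch and miR-311-3p with 1. The printed sequence of miR-311-3p was in the lists of females, ovaries and testes and not in that of males. The lists were searched for exact sequences, so other sequences under the same name were not counted. The table does not say in which libraries PC-3p-199_10687 was found. The 5p arm, PC-5p-243122_4, had the seed GGTCGTG of miR-92b-5p, and the duplex had 19 base pairs with overhangs of 0 and 1 bases.

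The miR-2 and miR-13 family, known in *Drosophila* for acting on genes that promote cell death, was represented on its 5p arm. PC-5p-52043_30 lay on the minus strand of JFBF01000022.1 from 1637418 to 1637520, in the hairpin of miR-2b-2-5p and miR-2b-3p. Against miR-2b-2-5p it had T4G, in the seed. With miR-2b-3p there were 19 base pairs, counted with the precursor's own base at the substituted place, and overhangs of 1 and 0 bases. The precursor carries the base of miR-2b-2-5p at the substituted place, so PC-5p-52043_30 was the only member of the 8 with a mismatch to its own precursor. PC-5p-49655_32 lay on the plus strand of JFBF01000073.1 from 242052 to 242123 and faced miR-13b-3p with 17 base pairs, where the overhangs were -1 base on the 5p arm, which is a recessed end, and 3 bases on the 3p arm. All of these known miRNAs were in the lists of all 4 libraries.

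PC-5p-23218_92 lay on the minus strand of JFBF01000236.1 from 279352 to 279485, opposite miR-14-3p. miR-14 is known in *Drosophila* as a suppressor of cell death. PC-5p-23218_92 had the seed GGAGCGA of miR-14-5p and differed from it at 4 bases outside the seed. With miR-14-3p it formed 14 base pairs, the fewest of these duplexes, with overhangs of 2 and 0 bases. Its hairpin of 130 nt was the longest of all members. PC-3p-64888_22 lay on the minus strand of JFBF01000243.1 from 294634 to 294724 and was miR-932-3p with 1 further base at its 3′ end. By exact sequence, miR-932-5p was in all 4 lists, and miR-932-3p was in those of females, males and testes. With miR-932-5p, PC-3p-64888_22 formed 17 base pairs and left overhangs of 2 and 2 bases.

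The other members of the group lay on the arm opposite a known miRNA. PC-3p-80027_17 lay on the minus strand of JFBF01000065.1 from 1187255 to 1187345 and faced miR-316-5p, with 18 base pairs and overhangs of 2 and 2 bases. PC-5p-28322_70 lay on the plus strand of JFBF01000041.1 from 1461874 to 1461951 and faced miR-995-3p, with 17 base pairs and overhangs of 0 and 2 bases. miR-316-5p and miR-995-3p were in all 4 lists. The 3 members that started with G, PC-5p-28322_70, PC-5p-49655_32 and PC-5p-23218_92, were all in this group. The energies of the 8 entries lay between -44.8 and -24.7 kcal/mol, and their median was -33.75 kcal/mol. The shared precursor of PC-3p-199_10687 and PC-5p-243122_4 was counted for both of them.

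**Figure D2:**
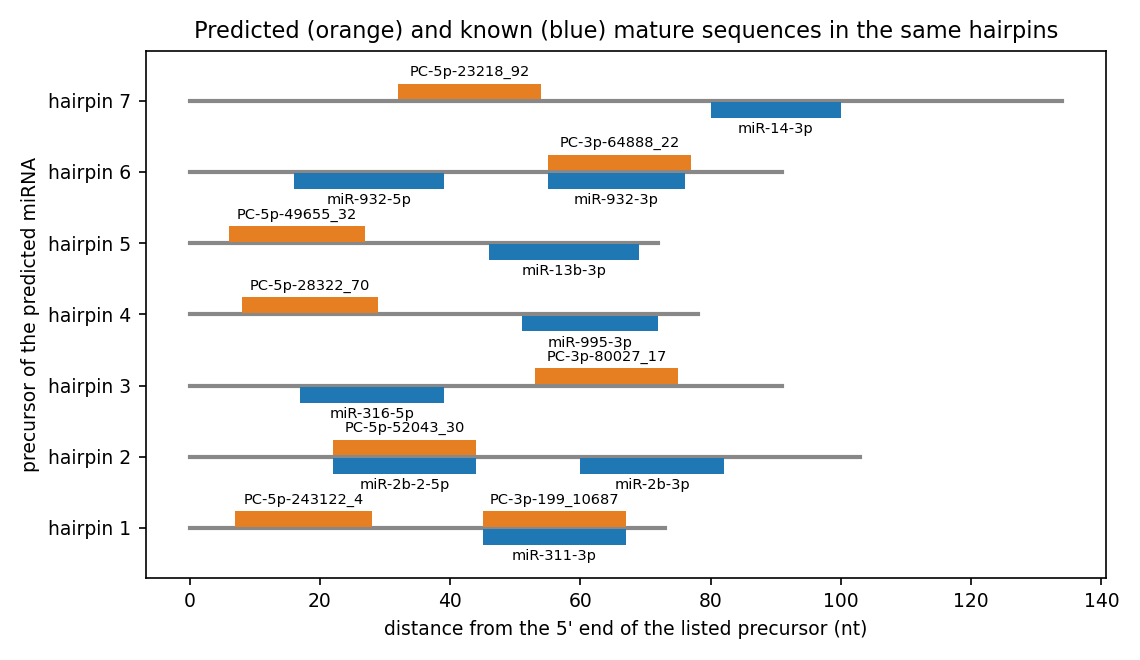
Place of the predicted mature sequences (orange, above the line) and the known ones (blue, below the line) in the 7 predicted precursors that overlap a known precursor, as distance in nt from the 5′ end of the precursor (grey line). PC-3p-199_10687, PC-5p-52043_30 and PC-3p-64888_22 lie over a known sequence of the same arm, and the other 5 members lie where no known sequence is drawn.

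Seeds of known miRNAs were looked up for the members only, so no share over the shorter names stands beside the counts. Of the 50 members, 4 had bases 2 to 8 in common with a known miRNA, namely PC-3p-199_10687, PC-5p-243122_4, PC-3p-64888_22 and PC-5p-23218_92, and all 4 were among the 8 above. With bases 2 to 7 there were 6, the added ones being PC-3p-42276_41 with miR-10-3p and PC-5p-125167_9 with miR-958-3p.

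Many members did not match their own precursor exactly. In 24 of the 50 (48%, exact interval 33.7% to 62.6%) the mature sequence differed from the precursor at 1 base, and in 26 it did not differ. No member had more than 1 mismatch, and the same limit held for all 215 names. Among the shorter names 118 of 165 had a mismatch (71.5%, 64.0% to 78.3%). The share was 1 of 8 in the known hairpins, 3 of 7 in the recurring hairpin and 20 of 35 in the other members. The origin of the mismatches was not tested.

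The mismatches of the members lay at positions 3 to 23. The seed held 11 of them, position 1 held none, and 13 were at position 9 or later, of which 4 were in the last 3 bases. The seed positions make up 31.7% of the bases of these 24 sequences. Among the shorter names 29 of 118 mismatches were in the seed, whose positions make up 37.6% of their bases, 5 at position 1 and 28 in the last 3 bases. By type, 14 of the members' substitutions were transitions and 10 transversions, against 49 transitions and 69 transversions in the shorter names. The most frequent among the members, A in the precursor and G in the mature sequence, occurred in 6 of 24, and in 16 of 118 in the shorter names. Those 6 include A8G in PC-3p-11960_210 and A5G in PC-3p-58586_26, both of the recurring hairpin, and A9G in PC-3p-76490_18. All 3 members of 24 or 25 nt had a mismatch, with G4T in PC-5p-363150_3, A23G in PC-5p-417967_2 and C14T in PC-5p-74381_18.

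**Figure D3:**
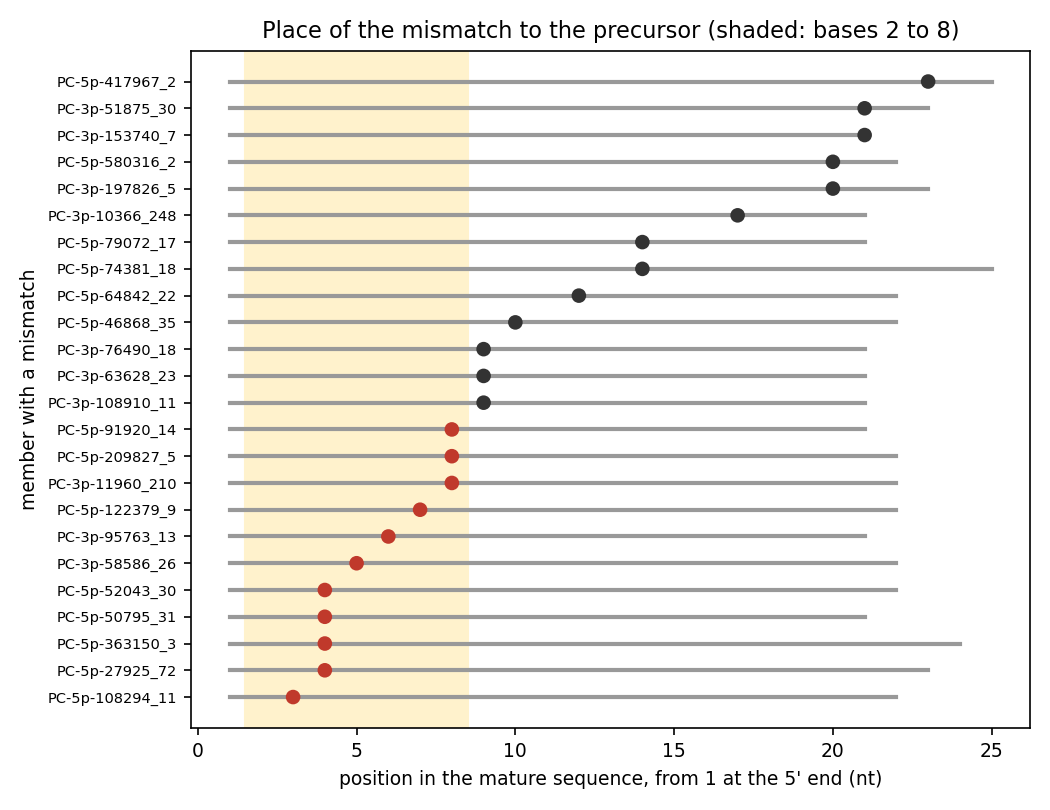
Place of the single mismatch (point) along the mature sequence (grey line, position in nt from the 5′ end) in the 24 members that differ from their precursor. Bases 2 to 8 are shaded, and the 11 red points lie in them.

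U was the most frequent first base. It began 28 of the 50 members (56.0%, exact interval 41.3% to 70.0%), followed by A in 11, C in 8 and G in 3. The share of U was 61.2% (53.3% to 68.7%) in the 165 shorter names, 60% in all 215 and 54.3% (47.1% to 61.3%) in the 199 distinct known sequences of 21 nt or more. These intervals overlap. Within the members the recurring hairpin had 1 name of 7 with U, the known hairpins 3 of 8 and the other members 24 of 35 (68.6%, 50.7% to 83.1%). The 35 others held 6 names with A, 5 with C and 0 with G.

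**Figure D4:**
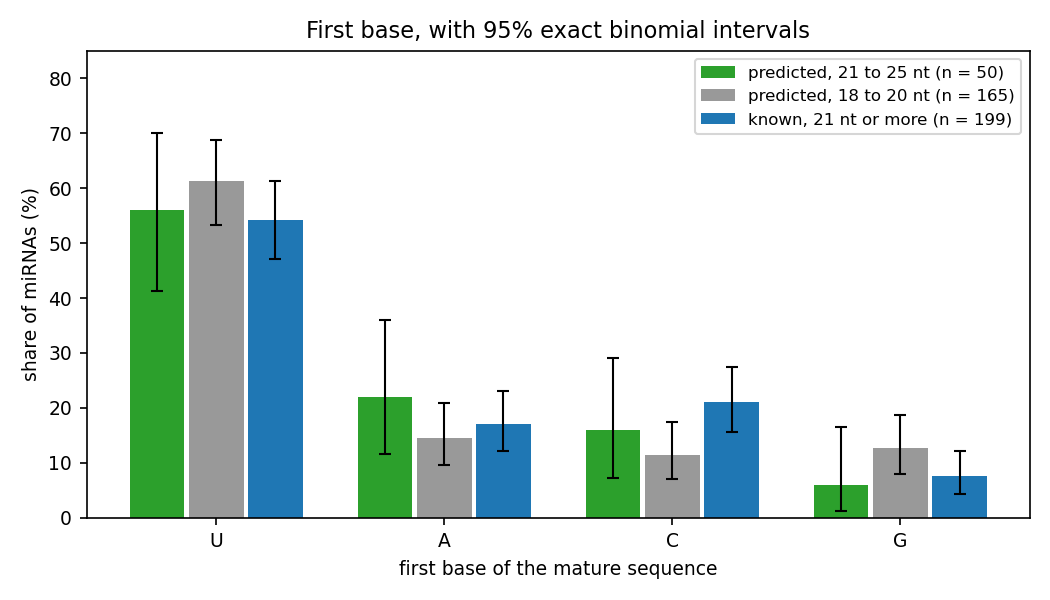
Share of miRNAs, in percent, by the first base of the mature sequence, for predicted miRNAs of 21 to 25 nt (n = 50), predicted miRNAs of 18 to 20 nt (n = 165) and distinct known sequences of 21 nt or more (n = 199). Bars are shares and lines 95% exact binomial intervals. U leads in all 3 sets, with 56.0%, 61.2% and 54.3%.

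The members were on the 5p arm in 29 names and on the 3p arm in 21 (42.0%, exact interval 28.2% to 56.8%). Among the shorter names the 3p arm held 92 of 165 (55.8%, 47.8% to 63.5%). In all 54 entries the centre of the mature sequence lay on the side of the precursor's midpoint that its arm label names. In none did the mature sequence reach across the loop. The same held for all 166 shorter entries. By strand, 23 entries were on the plus strand and 31 on the minus strand, and 77 of the 166 shorter entries were on the plus strand.

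The hairpins of the members had a median length of 86 nt and ranged from 50 to 130 nt, beside a median of 81 nt and a range of 50 to 142 nt in the 166 shorter entries. The shortest was that of PC-3p-199506_5, on JFBF01000143.1, and the longest after PC-5p-23218_92 was that of PC-5p-91920_14 with 126 nt. The listed precursor was 6 nt longer than the hairpin in 36 of 54 entries, and in 108 of the 166 shorter entries. It was more than 30 nt longer in 5 entries, all from the 35 other members, and in 5 of the 166 shorter entries.

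The median folding free energy of the 54 entries was -30.65 kcal/mol, with quartiles at -49.9 and -23.3 kcal/mol. The shorter entries had a median of -22.65 kcal/mol and ranged from -60.8 to -15 kcal/mol. Energies of -40 kcal/mol or lower occurred in 18 of the 54 entries and in 8 of the 166 shorter ones. A precursor with both arms listed enters these counts and the medians as 2 entries. None of the shorter names had both arms listed. Of the 18, the recurring hairpin gave 11 from its 6 precursors, the known hairpins 2 and the other members 5. The median over all members thus depended on entries that share a precursor or nearly the same sequence. Without the recurring hairpin it was -25.1 kcal/mol, and it was -25.1 kcal/mol in the 35 other members as well. Since longer precursors can form more pairs, the energy was also set per 100 nt of precursor, which gave medians of -33.2 in the members, -27.7 in the 35 others and -24.6 kcal/mol in the shorter entries. The GC content of the mature sequence had a median of 42.9% in the members and 38.9% in the shorter entries. The GC content of the precursor had a median of 41.2% in the members, 41.0% in the 35 others and 37.5% in the shorter entries. Its part in the difference was not tested.

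Among the 35 others, PC-5p-64989_22 had the lowest energy, -61.6 kcal/mol, in a precursor of 179 nt on the minus strand of JFBF01000415.1 from 106044 to 106222. PC-3p-620996_2 (-54.1 kcal/mol), PC-3p-76490_18 (-53.4 kcal/mol), PC-5p-33110_57 (-51.6 kcal/mol) and PC-5p-377737_3 (-40.1 kcal/mol) made up the rest below -40 kcal/mol. In the precursors of PC-5p-64989_22 and PC-5p-33110_57 the deposited file writes a further stretch on the 3p arm in capitals, although no entry for that arm was read from the table. With that stretch PC-5p-64989_22 had 17 base pairs and PC-5p-33110_57 had 19, each with overhangs of 1 and 1 bases. At the other end of the range were PC-3p-199506_5 with -15.5, PC-3p-42276_41 with -16.1 and PC-5p-417967_2 with -16.2 kcal/mol. The precursor of PC-3p-199506_5 begins with unresolved bases.

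**Figure D5:**
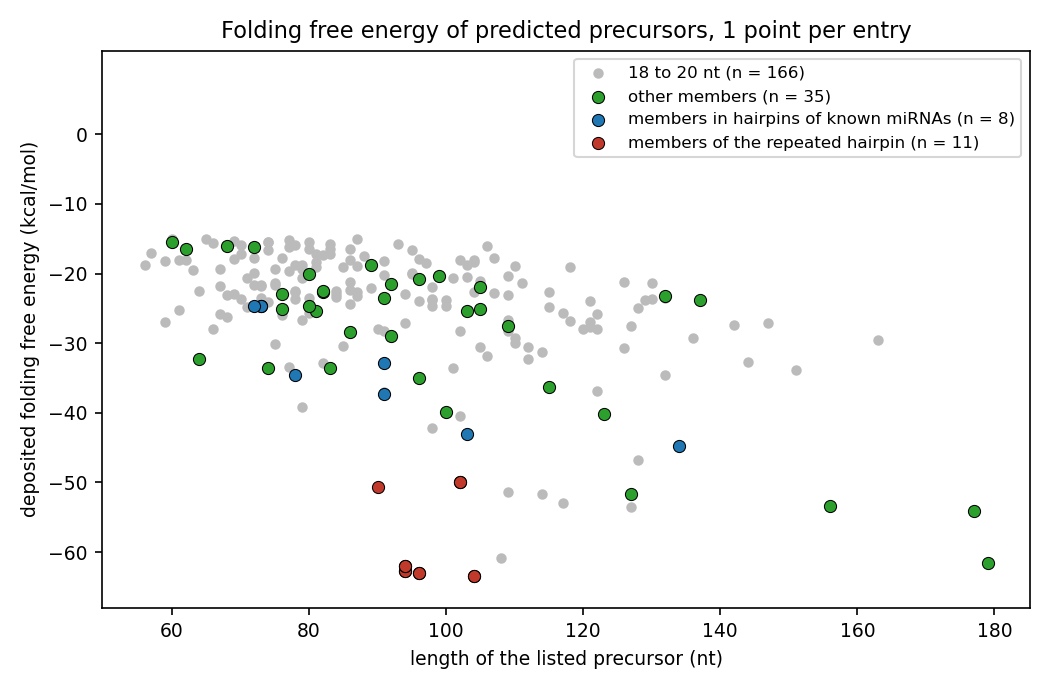
Deposited folding free energy (kcal/mol) against the length of the listed precursor (nt), 1 point per entry, for the 166 entries of 18 to 20 nt and the 54 entries of the members in their 3 groups; points at the same place lie over each other. The 11 entries of the recurring hairpin lie between -63.4 and -49.9 kcal/mol, and the 35 others spread from -61.6 to -15.5 kcal/mol.

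The share of mature bases paired in the deposited structure was read with the precursor's bases. It had a median of 78.3% in the members and ranged from 66.7% to 100%. In the shorter entries the median was 72.2%, with a range of 63.2% to 94.7%. The median was 71.4% in the 35 others, 81.8% in the known hairpins and 100% in the recurring hairpin. GC content ranged from 9.52% in PC-3p-95763_13 to 71.4% in PC-5p-79072_17.

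Neighbours were counted for the members only, without a share over all predicted names beside them. Another predicted precursor within 10000 bases was found for PC-3p-76490_18, which lay 504 bases from PC-5p-54860_28 on the same strand, and for PC-3p-95763_13, which lay 828 bases from PC-5p-108052_11 on the opposite strand. Both neighbours were 19 nt long. A known precursor that did not overlap the member's own was on the same contig for 10 members. The nearest was that of miR-31b, 106500 bases from PC-3p-63628_23.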

How the data were processed

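Small RNA libraries of 12-day-old adults were made and sequenced by the study's authors, 1 each from females, males, ovaries and testes. Per the labels, reads were analysed with ACGT101-miR 4.2. For finding new hairpins, the study names MIREAP in its results and RNAfold in its methods. The authors allowed 1 mismatch when matching reads to known miRNAs, and the number allowed between a predicted miRNA and the genome is not given in the sources used here. The deposited table of predicted miRNAs gives sequences and positions, and its folding free energies were read as a score in kcal/mol with no normalization. It stands with the females' record but names no library and was treated as pooled. 1 line of it is not reported here. The deposited lists of known miRNAs, 1 per library, were read as detection only. No genome of the contigs' build was used, and the reference annotation, of another assembly, was left out.

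Each mature sequence was placed in its precursor without gaps at the position with fewest mismatches. Pairing and 3′ overhangs came from the deposited structures of the precursors, so a substituted base was counted as the precursor's base. Seeds were bases 2 to 8. RNAfold 2.7.2, set to 37 degrees, gave second values of the energies and structures. Shares have 95% exact (Clopper-Pearson) intervals, which cover counting error only. Python 3.11.15, pandas 2.3.3, numpy 2.4.6, scipy 1.17.1 and matplotlib 3.10.9 were used, and 52 of 52 simulated cases came out as planted. With 1 pooled table no test was made.

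The members named were those with both arms listed, more than 1 position, an overlap with a known or other predicted precursor, a shared seed, the 3 lowest and 3 highest energies, the 2 longest and 2 shortest hairpins, 24 or 25 nt, or a neighbour within 10000 bases. The further members named, for a mismatch, an energy below -40 kcal/mol, a GC content or bases 2 to 7, were chosen after their values were seen. The members and lists were chosen with earlier results of these data known. Alternatives were other units of counting, length limits, overlaps, seeds and distances, and recomputed structures.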

Additional observations from a re-analysis of the deposited data

How the results depend on the processing

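Of 48 alternatives over 11 results, 41 left the value within its limits and 7 moved it. The length limit set the number of members, which was 77 with names of 20 nt and 27 from 22 nt on, beside 50. The names with 1 mismatch were then 37 and 15, beside 24. Without the recurring hairpin, 2 members had both arms listed, beside 8. When at least 50% of the shorter precursor had to overlap, 5 members lay in known hairpins, beside 8, and 6 did when the known mature sequence had to be found without mismatch. With neighbours on the same strand only, 1 member had a neighbour, beside 2. The median energy ranged from -30.65 to -24.7 kcal/mol. The median share of paired bases was 84.2% with recomputed structures and 72.7% without the recurring hairpin, beside 78.3%. These shifts counted as within the limits, so an unmoved value need not be close to the main one. The recomputed energy was within 1 kcal/mol of the deposited one in 40 of 54 entries. The depth behind each entry is unknown, and a difference of a single base between names could not be weighed against it. The mismatch counts, the alternatives without groups of members and the exact match of a known mature sequence were added after seeing the data. No paired analysis was possible because each group had 1 library and the predicted table is pooled.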

Other observations

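The names of the predicted miRNAs end in a pair of numbers, as in PC-3p-199_10687 and PC-5p-417967_2. Over the 215 names these numbers ran in opposite order, with 0 exceptions: a name with a larger first number never had a larger second number. The sources used here do not state what the numbers are, and they were not read as amounts.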
